A study of Mus musculus with 6 samples.

Results

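The insulin-like growth factor (IGF) system of the embryonic midbrain was examined through 9 genes, the ligands Igf1 and Igf2, the receptors Igf1r and Igf2r, and the binding proteins Igfbp2, Igfbp3, Igfbp4, Igfbp5 and Igfbp7. They were taken by gene name from the 26852 genes of the count table of Lmx1b conditional mutants and controls, with earlier results of these data known. IGF1 and IGF2 are secreted growth peptides that signal through the tyrosine kinase receptor IGF1R, which recruits adaptor proteins and switches on the PI3K-Akt and Ras-Erk pathways. IGF2R, also known as the mannose 6-phosphate receptor, carries IGF2 to lysosomes for degradation and does not signal as a kinase, while the binding proteins hold the ligands outside the cell until proteases release them. In the brain the system is known for its part in the growth of progenitors and the survival of neurons, with Igf2 made largely in the meninges and choroid plexus. Igf2 and Igf2r are imprinted genes, in many but not all tissues read mainly from the paternal and the maternal allele respectively. Which allele was read was not measured here.

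RNA sequencing was done on dissected midbrains of C57Bl/6 embryos at E14.5, with 3 libraries from Lmx1b cKO embryos (Lmx1b fl/fl with Pitx3-Cre) and 3 from littermate controls (Lmx1b wt/wt with Pitx3-Cre). Each library was made from a pool of 2 embryos, so every value is an average over a pool. Controls and mutants alike carried Pitx3-Cre, which takes the place of 1 Pitx3 allele, and the Cre acts only in cells that express Pitx3, the meso-diencephalic dopaminergic neurons, which are a small part of the dissected tissue. The table held group means of normalized counts, that is read counts divided by a size factor per library, and the counts of the single libraries were recovered from these means by arithmetic. The libraries are named a, b and c within each genotype in the order of falling size factor; these letters carry no pairing between genotypes.

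Recovered reads amounted to 20566011 to 24974510 per library, over 26348 genes that held 69.2% of the reads assigned to genes. Lmx1b itself was read at normalized counts of 1257, 1401 and 1455 in cKO a, b and c and of 1368, 1352 and 1474 in control a, b and c, so the groups overlapped. The genotype labels were thus not checked by the level of Lmx1b, and the libraries are called by their labels throughout. Midbrain markers were abundant in every library (summed normalized count of 17 genes from 27858 to 31025, led by Tfap2b). Of the 17, 12 had a lower cKO level, with a median log2 fold change of -0.11. For 5 the groups did not overlap and the cKO was lower, beside 3.79% of all genes tested. At an unadjusted limma p under 0.05, 4 were lower (Ddc, Pitx3, En1 and En2), beside 1.61% of all genes tested. The forebrain markers came to between 2379 and 2816, mostly Six3. Replicate c of the cKO stood apart: its 16 mesenchyme and meninges markers summed to 15789, against 3941 and 1892 in cKO a and b and between 2008 and 2172 in the controls. Col1a1, the collagen that was the most abundant of them, was read at 6097 in cKO c, at 532 in cKO a and between 11 and 15 in the other libraries. The main values that rest on cKO c are therefore given with and without it.

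All 9 genes were recovered and passed the minimum mean normalized count of 10. None of them had an adjusted p under 0.05 in the limma fit of 16673 genes, in which 0% of all genes did, and all 9 adjusted p-values (Benjamini-Hochberg) came to 1.00. At an unadjusted p under 0.05 there was 1 gene of 9, Igf2, against 2.79% of all genes tested. The cKO level was above the control level for 6 genes and below it for 3, and the median log2 fold change was 0.03, beside 0.00 over all genes tested. For 6 of the 9 genes the log2 fold change was under 0.1 in size, as it was for 61.4% of all genes. In bulk tissue, fewer cells of a type and less RNA per cell cannot be told apart, and the p-values measure the spread between these pools.

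**Figure D1:**
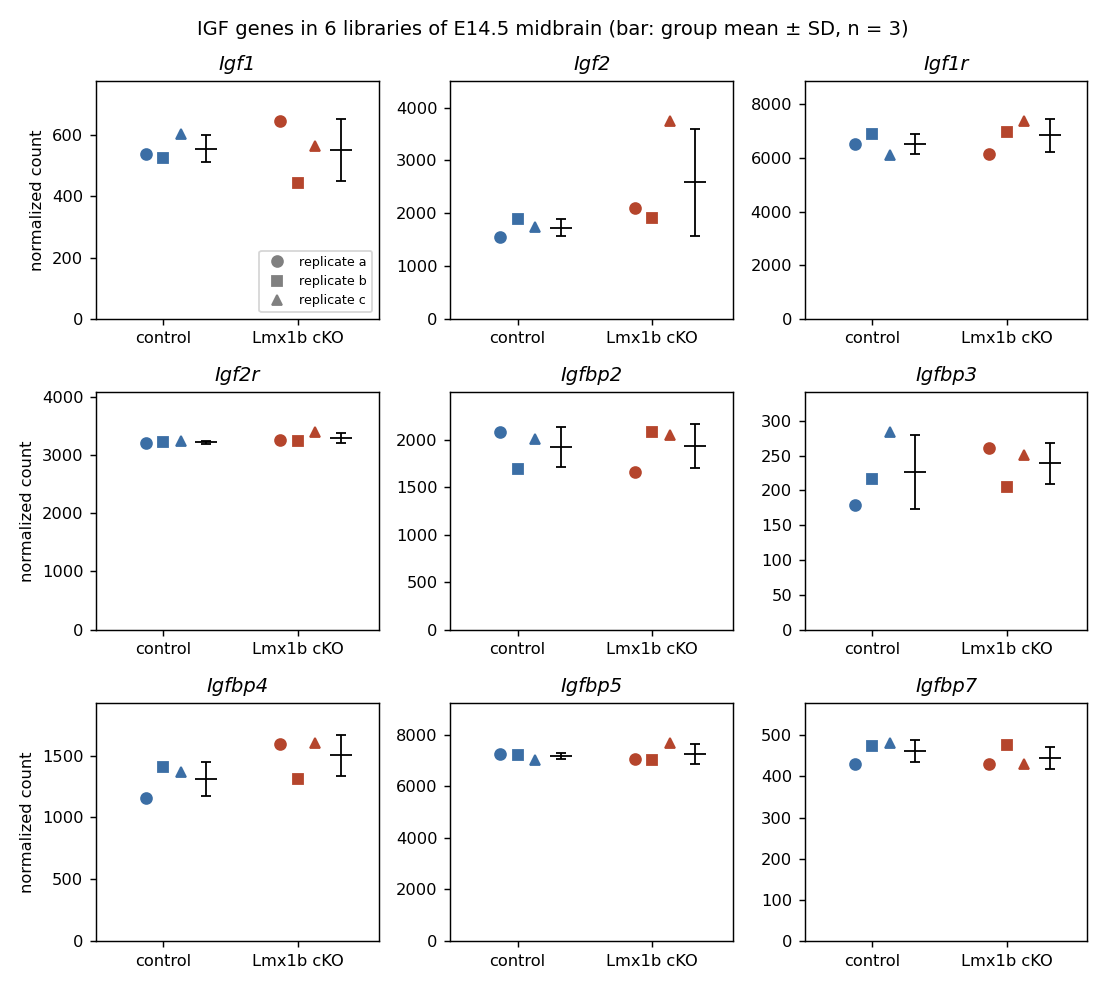
Normalized counts (vertical axes, starting at 0) of the 9 IGF genes in 3 control libraries (blue) and 3 Lmx1b cKO libraries (red), with the group mean ± SD (n = 3) as a black bar and the replicate given by the symbol. Igf2 in cKO replicate c, at 3756, stands far above the other 5 libraries, while Igf2r and Igfbp5 hardly vary.

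Igf2 is the growth factor of the embryo and lies on chromosome 7 (GRCm38, 142650766 to 142666816, minus strand; ENSMUSG00000048583). Its normalized count was 2099 in cKO a, 1909 in cKO b and 3756 in cKO c, and 1557, 1886 and 1729 in control a, b and c. The groups did not overlap, but only just: the lowest cKO library, b, lay 1.01 times above the highest control library, while cKO c lay 1.99 times above it. Libraries of the groups failed to overlap for 7.67% of all genes tested, 3.88% with the cKO higher and 3.79% with it lower. Mean Igf2 levels were 2588 ± 1016 in the cKO and 1724 ± 164 in the controls (SD, n = 3 each). The log2 fold change was 0.52 (SE 0.20, 95% interval 0.08 to 0.95), a 1.43-fold higher level, with an unadjusted limma p of 0.0233 and an adjusted p of 1.00. An exact two-sided permutation test over the 6 libraries gave p = 0.1, the smallest value that 3 against 3 can give. By the unadjusted p Igf2 ranked 182 among the 16673 genes, and 93.8% of them had a smaller change.

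Without cKO c the log2 fold change of Igf2 was 0.22 (limma adjusted p = 1.00, unadjusted 0.0278). The groups still did not overlap then, as was the case for 17.2% of all genes with that library left out, and 3.49% of all genes had an unadjusted p under 0.05. Without cKO b, the library nearest to the controls, the log2 fold change was 0.70. Leaving out each library in turn kept the unadjusted p under 0.05 in 4 of 6 fits, and it missed without control a (0.0728) and without control c (0.0509). The lowest adjusted p for Igf2 in these 6 fits was 0.994. The direction was thus the same in all 6 fits, and the size ranged from 0.22 to 0.70 on the log2 scale.

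Igf2 had the widest spread of the 9 genes within the cKO group, with a coefficient of variation of 39.3% against 9.53% in the controls. Among the 11095 genes with a mean normalized count of 200 to 10000, 0.315% had a wider spread than this in the cKO libraries, where the median was 5.98%. Without cKO c the coefficient of variation of Igf2 in the 2 remaining cKO libraries was 6.68%. The library that set this spread was the one with the raised mesenchyme and meninges markers. Of the 13 of these markers that passed the minimum mean, 10 were highest in cKO c, beside 16.4% of all genes tested. All 13 had a higher cKO mean, with a median log2 fold change of 1.15. At an unadjusted limma p under 0.05, 1 was higher, beside 1.18% of all genes. For 3 the groups did not overlap and the cKO was higher, beside 3.88% of all genes. None of the 16 was at 0 throughout. Without cKO c all 13 still had a higher cKO level, with a median of 0.51. Of the remaining cKO libraries only cKO a stood above the controls as a whole. The median level of the 13, each relative to its mean over the 6 libraries, was 1.01 in cKO a and 0.46 in cKO b. In the controls it was 0.33 to 0.58. Pearson's r between Igf2 and the marker sum on the log2 scale was 0.97 over the 6 libraries and 0.68 over the 5 without cKO c, as a description of points that share libraries. Among those 5, cKO a, control b, control c and control a came in the same order for Igf2 and for the markers, whereas cKO b had the lowest marker sum of all (1892), with Igf2 at 1909. The part of these cells in the Igf2 difference, with or without cKO c, was not tested. Sums for the endothelium (6759 to 7439 over the 6 libraries) and for pericytes and smooth muscle (9605 to 10045) moved little. Bone and cartilage markers, mostly Col2a1, summed to 6401 in cKO c and from 4091 to 5829 in the other 5 libraries. Behind Col2a1, bone genes picked after their values were seen stood out in cKO c: Ibsp at 163 against 0 to 1 elsewhere, Sp7 at 40 against 0 to 3 and Runx2 at 84 against 10 to 28. Of the 7 bone and cartilage markers past the minimum mean, 5 were highest in cKO c, beside 16.4% of all genes tested. Choroid plexus markers, mostly Otx2, summed to 2328 in cKO c and from 1970 to 2147 elsewhere. Of the 6 past the minimum mean, 2 were highest in cKO c, beside 16.4% of all genes tested. Among the 2 was the water channel gene Aqp1, at 121 against 2 to 20 elsewhere. Ttr, a defining marker, was at 0 in all libraries except cKO b. Red blood cell markers, led by Hbb-bs, summed to 13929, 17717 and 18170 in cKO a, b and c and to 12622, 12745 and 17196 in the controls. Of the 10, 9 had a higher cKO level, with a median log2 fold change of 0.30. At an unadjusted limma p under 0.05, 2 were higher, beside 1.18% of all genes tested. The part of these lists in the Igf2 difference was not tested either.

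H19, the maternally expressed long noncoding RNA that shares enhancers with Igf2, lies on the same strand of chromosome 7, from 142575529 to 142578143. It was read at 1808, 1571 and 3759 in cKO a, b and c and at 1524, 1503 and 1657 in the controls, so that cKO c again stood far above the rest and cKO b fell among the controls. H19 had a log2 fold change of 0.49 with all libraries (SE 0.24; limma adjusted p = 1.00, unadjusted 0.0688; exact two-sided permutation p = 0.2) and of 0.12 without cKO c (unadjusted limma value 0.185). The ratio of Igf2 to H19 in normalized counts lay between 0.999 and 1.25 in all 6 libraries and did not separate the genotypes (exact two-sided permutation p = 1.00). Both RNAs of the locus were thus high in the same library, in nearly the same proportion as elsewhere.

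**Figure D2:**
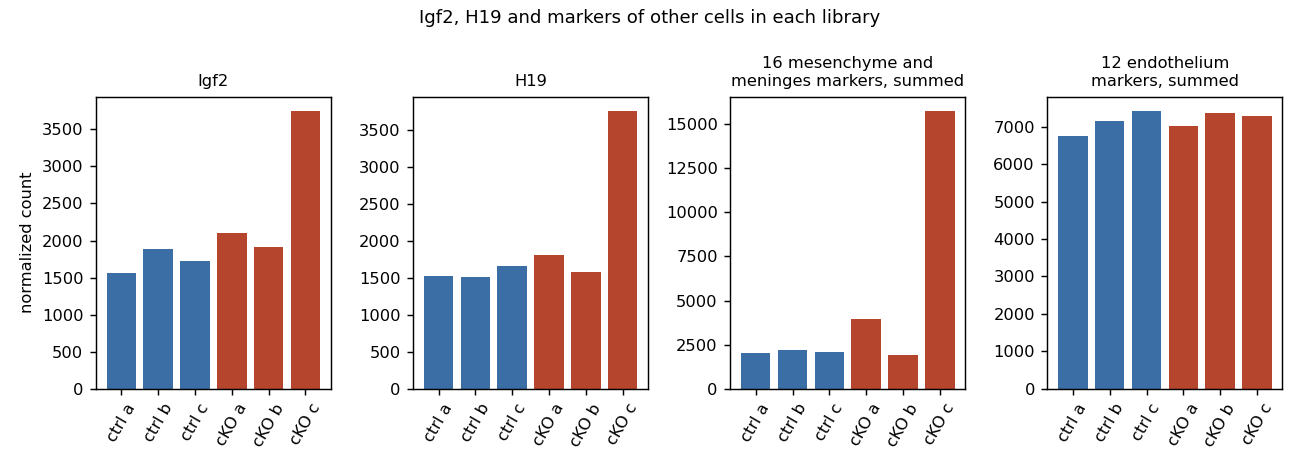
Normalized counts (vertical axes, starting at 0) of Igf2, of H19 and of 2 marker lists summed, in each of 6 libraries, controls in blue and Lmx1b cKO in red. Igf2, H19 and the mesenchyme and meninges sum peak in cKO replicate c, at 3756, 3759 and 15789, while the endothelium sum stays between 6759 and 7439.

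Igf2 is read from several promoters, and 4 promoter windows are listed for it in RefSeq (assembly GRCm38.p6), each reaching 250 bases before a start site. The outermost windows are shown here because they frame the locus of the member whose level differed most among the 9 genes, as the 120 bases before each start, 5′ to 3′, in lower case with any GC box (GGGCGG or its complement) in capitals. Igf2 window 1 is chr7:142657497-142657616 on the minus strand and window 4 is chr7:142666817-142666936 on the minus strand.
Igf2 window 1: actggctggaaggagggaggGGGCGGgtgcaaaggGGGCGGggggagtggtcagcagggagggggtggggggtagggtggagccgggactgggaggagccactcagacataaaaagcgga
Igf2 window 4: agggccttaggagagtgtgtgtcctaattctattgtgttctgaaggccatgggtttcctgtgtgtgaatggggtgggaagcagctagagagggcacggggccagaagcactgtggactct
Window 1 carries a pair of GC boxes in a G-rich stretch, while window 4 carries none. The counts were made per gene, so the share of Igf2 RNA from each start was not measured. The exons of Igf2 share 98 bases with those of Igf2os on the opposite strand and 3596 bases (62.8% of its exon length) with Gm49394, a transcript on the same strand that runs through the gene. How reads in shared exons were assigned, and whether strand was used, is not given in the sources used here, so the Igf2 count may include or lack such reads.

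Igf1 encodes the ligand best known for growth after birth, and lies on chromosome 10 (GRCm38, 87858265 to 87937042, plus strand; ENSMUSG00000020053). Its normalized counts were 648, 445 and 565 in cKO a, b and c and 539, 525 and 606 in the controls. The highest and the lowest library were both cKO, with the 3 controls between them. The means were 553 ± 102 in the cKO and 557 ± 43.1 in the controls (SD, n = 3 each). The log2 fold change of Igf1 was -0.01 (SE 0.13, 95% interval -0.30 to 0.28; limma adjusted p = 1.00, unadjusted 0.933; exact permutation p = 1.00). The sign turned with the library left out, from -0.14 without cKO a to 0.13 without cKO b. Of the genes with a mean of 200 to 10000, 4.62% had a wider spread in the cKO than Igf1 (coefficient of variation 18.5%). The microglia markers summed to between 1787 and 1864 in the 6 libraries, a 1.04-fold range beside the 1.46-fold range of Igf1.

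Per kilobase of exon, Igf2 was above Igf1 in every library. The ratio of their normalized counts per kilobase was 5.60, 7.43 and 11.5 in the cKO and 5.00, 6.21 and 4.94 in the controls. The groups overlapped, since cKO a lay below control b, and the exact two-sided permutation test gave p = 0.2. The cKO mean of the ratio was 8.18 with cKO c and 6.51 without it, beside 5.38 in the controls.

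Igf1r encodes the receptor kinase through which both ligands signal, and lies on chromosome 7 (67952827 to 68233668, plus strand; ENSMUSG00000005533). It was the second most abundant of the 9 genes by normalized count, at 6161, 6979 and 7392 in the cKO and 6529, 6877 and 6123 in the controls. The lowest cKO library lay within the control range and the 2 others above it. Between the genotypes Igf1r differed by a log2 fold change of 0.06 (SE 0.07, 95% interval -0.08 to 0.21; limma adjusted p = 1.00, unadjusted 0.352; exact permutation p = 0.4). It came to 0.01 without cKO c and to 0.14 without cKO a, and only the latter fit had an unadjusted p under 0.05 (0.0333).

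Igf2r encodes the receptor that clears IGF2, and lies on chromosome 17 (12682406 to 12769664, minus strand; ENSMUSG00000023830). It had the tightest values of all members: 3257, 3230 and 3395 in the cKO and 3196, 3212 and 3243 in the controls, a coefficient of variation of 2.69% in the cKO (0.579% without cKO c) and 0.752% in the controls. The groups overlapped through cKO b, which lay under control c, and the highest library was again cKO c. For Igf2r the log2 fold change was 0.03 (SE 0.05, 95% interval -0.07 to 0.14; limma adjusted p = 1.00, unadjusted 0.508; exact permutation p = 0.2), and 0.01 without cKO c. Its interval was narrow, so that a change of the size estimated for Igf2 lay outside it.

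The 120 bases before the Igf2r start are shown because the gene is the imprinted partner of Igf2 and, among the promoter windows of the 9 genes, the one with most E-boxes (CANNTG), 4 within 250 bases. The stretch is chr17:12769707-12769826 (GRCm38.p6, minus strand), with GC boxes in capitals.
Igf2r: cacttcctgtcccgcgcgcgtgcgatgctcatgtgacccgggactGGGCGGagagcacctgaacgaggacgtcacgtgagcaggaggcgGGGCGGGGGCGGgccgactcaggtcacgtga
Airn, the antisense noncoding RNA that silences the paternal Igf2r allele in many tissues, shares no exon bases with Igf2r. Airn was read at 25.3, 33.8 and 53.0 in the cKO and 54.9, 31.7 and 32.4 in the controls (log2 fold change -0.14, SE 0.37, limma adjusted p = 1.00, unadjusted 0.709, exact permutation p = 0.8). Control a and cKO c were the highest libraries of Airn, 1 of each genotype.

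The ratio of Igf1r to Igf2r per kilobase of exon lay between 1.05 and 1.21 in the 6 libraries. It did not separate the genotypes (exact two-sided permutation p = 0.5). The likeness of the receptor levels depended on the length used, since per kilobase of coding length the ratio lay between 3.42 and 3.95.

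Among the binding proteins, Igfbp4 came nearest to a difference. Igfbp4, a secreted protein that mostly restrains IGF action and is cut by the protease PAPP-A, lies on chromosome 11 (99041244 to 99054392, plus strand; ENSMUSG00000017493). In the cKO it was read at 1596, 1310 and 1604 and in the controls at 1156, 1412 and 1367. Both cKO a and cKO c lay above all controls and cKO b lay between control a and the other controls. Its log2 fold change was 0.20 (SE 0.10, 95% interval -0.01 to 0.42; limma adjusted p = 1.00, unadjusted 0.0609; exact permutation p = 0.3). Without cKO c the log2 fold change was 0.16, in the same direction. The unadjusted p fell under 0.05 without cKO b (0.00908) and without control b (0.0338), while without control a the log2 fold change was 0.11 (unadjusted limma value 0.274).

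Its promoter is shown because it was the only one of the 13 windows of the 9 genes with a TATA box (TATAAA), which 12.4% of all 32851 windows hold. The stretch is chr11:99041124-99041243 (GRCm38.p6, plus strand), with the TATA box in capitals.
Igfbp4: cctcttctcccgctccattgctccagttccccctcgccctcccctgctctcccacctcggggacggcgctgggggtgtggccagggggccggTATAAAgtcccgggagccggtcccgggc
The GC box (GGGCGG) was present in 6 of the 13 windows against 32.7% of all windows, and the E-box (CANNTG) in 8 of 13 against 66.2%. The letters TAATTA, a core that many homeodomain proteins can bind and that was searched because Lmx1b is such a protein, occurred in 0 of the 13 windows and in 4.84% of all windows. Every motif was searched on both strands of the 250 bases before the start, and these counts say only which letters are in the windows.

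Igfbp5 and Igfbp2 lie next to each other on chromosome 1 on opposite strands, Igfbp2 from 72824503 to 72852474 (ENSMUSG00000039323) and Igfbp5 from 72857932 to 72874884 (ENSMUSG00000026185). Igfbp5, which binds the extracellular matrix as well as the ligands, had the highest normalized count of the 9 genes. Its counts were 7054, 7001 and 7683 in the cKO and 7255, 7232 and 7037 in the controls. The controls lay close together, with cKO b just below them and cKO c above. Igfbp5 had a log2 fold change of 0.01 (SE 0.05, 95% interval -0.09 to 0.11; limma adjusted p = 1.00, unadjusted 0.814; exact permutation p = 0.9), with a turn to -0.03 without cKO c.

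Igfbp2, a binding protein of progenitors and glia, was read at 1664, 2078 and 2048 in the cKO and 2082, 1687 and 2001 in the controls. In each genotype 1 library was low, cKO a and control b, and the other 4 lay together whatever their genotype. Igfbp2 had a log2 fold change of 0.00 (SE 0.10, 95% interval -0.22 to 0.21; limma adjusted p = 1.00, unadjusted 0.981; exact permutation p = 1.00). Over the 9 tested genes of the imprinted list, Pearson's r with Igfbp2 across the 6 libraries ranged from -0.06 (Slc22a3) to 0.94, with a median of 0.71. The highest values were those of Mest, an imprinted gene of the mesoderm and brain (r = 0.94), and Plagl1, an imprinted zinc finger factor (r = 0.94), while H19 had 0.23. These genes were picked after their values were seen and r is given as a description, over points that share libraries. Mest was lowest in the same libraries as Igfbp2, at 3570 in cKO a and 3658 in control b, against 4279 to 5492 in the other 4.

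Igfbp3, the main carrier of IGFs in serum, lies on chromosome 11 (7206086 to 7213923, minus strand; ENSMUSG00000020427) and had the lowest normalized count. Libraries a, b and c held 260, 205 and 251 in the cKO and 179, 216 and 284 in the controls. The controls spanned the whole range of the cKO libraries, with a coefficient of variation of 23.6% against 12.4%. A log2 fold change of 0.12 was estimated for Igfbp3 (SE 0.18, 95% interval -0.27 to 0.52; limma adjusted p = 1.00, unadjusted 0.517; exact permutation p = 0.8), the interval widest after that of Igf2. It turned to -0.05 without control a and came to 0.28 without control c.

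Igfbp7, a low-affinity relative of the other binding proteins that is made by vessels, lies on chromosome 5 (77349240 to 77408041, minus strand; ENSMUSG00000036256). Its counts were 430, 475 and 431 in the cKO and 431, 475 and 482 in the controls. In words, cKO a, cKO c and control a lay together at the bottom, and cKO b lay with the other controls above them. Igfbp7 had a log2 fold change of -0.05 (SE 0.10, 95% interval -0.28 to 0.17; limma adjusted p = 1.00, unadjusted 0.631; exact permutation p = 0.5), and it stayed negative in all 6 fits without a library (-0.10 to -0.02). Its exons share 85 bases with those of Polr2b on the opposite strand, 7.03% of their length.

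The Igfbp7 promoter is shown because it holds most GC boxes of the 13 windows, 4 within 250 bases. The stretch is chr5:77408046-77408165 (GRCm38.p6, minus strand), with the GC boxes of both strands in capitals.
Igfbp7: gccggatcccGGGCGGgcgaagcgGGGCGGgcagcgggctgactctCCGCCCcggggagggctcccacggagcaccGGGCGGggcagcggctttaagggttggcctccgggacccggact
In contrast to the Igf2 stretches, it holds GC boxes on both strands.

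**Figure D3:**
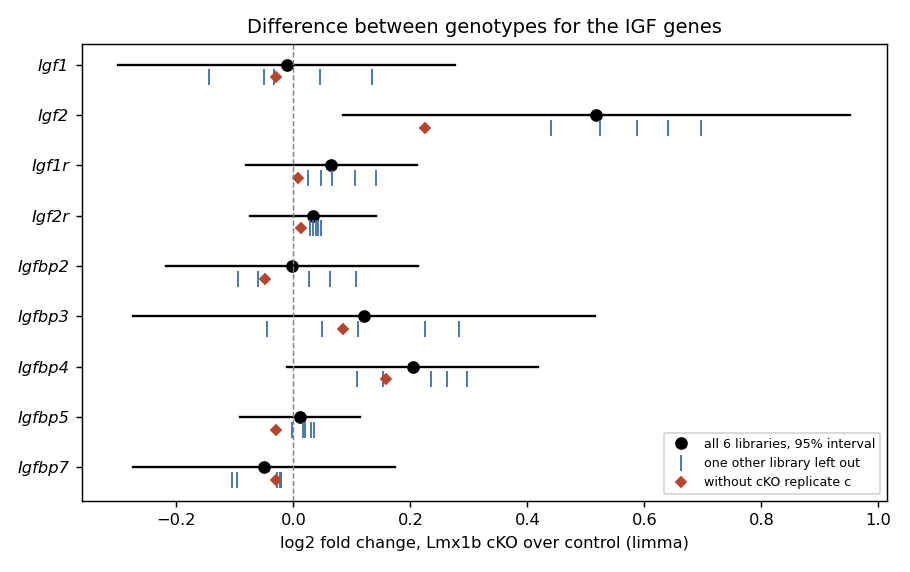
Log2 fold change of Lmx1b cKO over control (horizontal axis) for the 9 IGF genes, with the limma estimate and 95% interval from all 6 libraries (black), the estimates with 1 other library left out (blue ticks) and the estimate without cKO replicate c (red diamonds). Only the interval of Igf2 (0.08 to 0.95) leaves out 0, and its estimate without cKO c is 0.22.

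The summed level of the 5 binding proteins over that of the 2 ligands, per kilobase of exon, was 6.65, 8.05 and 4.47 in the cKO and 9.22, 7.58 and 8.41 in the controls. The groups overlapped through cKO b and control b, and the exact two-sided permutation test gave p = 0.2. The lowest ratio was that of cKO c, the library in which Igf2 was highest, and without it the cKO mean of the ratio was 7.35 instead of 6.39, beside 8.40 in the controls. Per kilobase of coding length the ratio was lower throughout, between 2.22 and 4.18, with the lowest value again in cKO c.

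Of the 9 genes, 5 had their highest library in cKO c (Igf2, Igf1r, Igf2r, Igfbp4 and Igfbp5), whereas 16.4% of all genes tested were highest there. Igf1 was highest in cKO a, Igfbp2 in control a, and Igfbp3 and Igfbp7 in control c. The lowest library was control a for 4 of them (Igf2, Igf2r, Igfbp3 and Igfbp4). The median coefficient of variation of the 9 genes was 11.1% in the cKO and 7.74% in the controls, beside 5.98% and 5.71% for the genes with a mean of 200 to 10000.

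To compare genes with each other, normalized counts were divided by the exon length of the gene in kilobases. On this scale Igfbp5 led with 1201 ± 42.4 (SD over 6 libraries), above 94.6% of all genes tested, followed by Igfbp2 with 1043 ± 107. The libraries of Igfbp5 and Igfbp2 did not overlap, nor did those of Igfbp2 and Igf1r, so the 2 leading binding proteins stood apart from the rest. Igf1r (398 ± 29.6), Igf2 (377 ± 141), Igfbp7 (375 ± 21.2), Igf2r (350 ± 7.71) and Igfbp4 (319 ± 39.1) followed as a block in which neighbours overlapped. Without cKO c Igf2 was at 321 ± 35.6 (SD over 5 libraries), while Igf1r was at 389, Igfbp7 at 379 and Igf2r at 347. Igfbp3 (74.3 ± 12.5) and Igf1 (56.0 ± 7.09) were lowest, and although their ranges overlapped, Igfbp3 was above Igf1 in 6 of 6 libraries. Igf1 lay above 31.0% of all genes.

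The order depended on the length used, because Igf1 and Igf2 have long noncoding parts. Per kilobase of coding length Igfbp5 stayed first at 8869, Igf2 came second at 3180 and then Igfbp2 at 2106, while Igf1 moved from the ninth place to the sixth at 902. By either length the ligand Igf2 was above Igf1, and Igfbp5 was above every other binding protein of the 9.

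**Figure D4:**
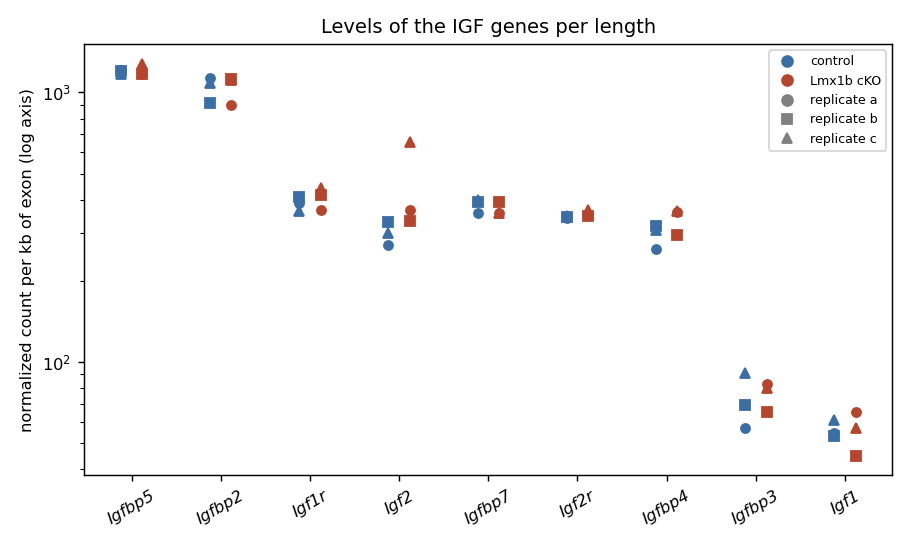
Normalized count per kilobase of exon (vertical axis, log scale) of the 9 IGF genes in 3 control (blue) and 3 Lmx1b cKO (red) libraries, in the order of their means. Igfbp5 and Igfbp2 lie between 901 and 1279, a block of 5 genes between 262 and 656, and Igfbp3 and Igf1 between 44.9 and 90.8.

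The wider pathway was covered by 80 further genes, of which 77 were in the table, 71 were recovered and 66 passed the minimum mean. Of these 66, 0 were higher and 2 were lower in the cKO at an unadjusted p under 0.05, beside 1.18% and 1.61% of all genes, and none had an adjusted p under 0.05 (limma). Their log2 fold changes were positive for 35 and negative for 31, with a median of 0.01. Pik3r3, Akt1, Gsk3b, Meg3, Peg3 and Ndn were too abundant for the search of up to 30000 reads per group sum, so their libraries were not recovered, and the log2 ratios of their deposited means lay between -0.02 and 0.09.

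Among the other ligands, receptors and binding proteins of the family, 6 genes were tested, with a median log2 fold change of 0.05 and 0 past the unadjusted threshold in either direction. Insr, the insulin receptor, was the most abundant at 4462, 4605 and 4705 in the cKO and 4552, 4439 and 4354 in the controls (log2 fold change 0.04, SE 0.05). The genotypes overlapped, with cKO b and c just above all controls. Of the proteases that cut binding proteins and their inhibitors, 8 were tested, with a median of -0.03 and 0 past the threshold. Ctsd, the lysosomal protease cathepsin D, led them at 4360 to 4623 in the cKO and 4519 to 4617 in the controls.

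The 12 receptor adaptors had a median log2 fold change of 0.01, with 0 past the threshold, and Ptpn11, the phosphatase SHP2, was the most abundant (6384 to 6622 in the cKO, 6478 to 6869 in the controls). The 9 genes of the Ras-Erk branch had a median of 0.03 and 0 past the threshold. Of the 22 genes of the PI3K-Akt-Foxo branch, 1 was lower, 0 were higher and the median was -0.01.

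Akt2, the Akt kinase best known for insulin signalling, was the gene of that branch past the unadjusted threshold. It was read at 1368, 1455 and 1408 in the cKO and 1586, 1500 and 1631 in the controls, and the groups did not overlap. Its log2 fold change was -0.16 (SE 0.06; limma adjusted p = 1.00, unadjusted 0.0322; exact permutation p = 0.1). With a library left out the unadjusted p stayed under 0.05 in 2 of 6 fits (without cKO b and without control b), and it missed without cKO a, cKO c, control a or control c, with a highest value of 0.110.

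Of the imprinted genes around Igf2 and Igf2r and of the imprinted growth network, 9 were tested, with a median log2 fold change of 0.03, 0 higher and 1 lower. Cdkn1c, the cell cycle inhibitor p57, was the most abundant of the recovered ones (the deposited means of Meg3, Ndn and Peg3 were higher), at 4386, 5481 and 5006 in the cKO and 5114, 4806 and 5075 in the controls (log2 fold change -0.02, SE 0.07). Slc22a3, an organic cation transporter gene near Igf2r on chromosome 17 (12418960 to 12507704, minus strand), was the lower one. It was read at only 17.8, 10.6 and 14.1 in the cKO and 44.2, 38.4 and 64.8 in the controls. All cKO libraries lay far below all controls, with a log2 fold change of -1.73 (SE 0.41; limma adjusted p = 1.00, unadjusted 0.00119; exact permutation p = 0.1). The unadjusted p stayed under 0.05 in all 6 fits without a library, at most 0.00733. Exons of Slc22a3 overlap those of Plg on the opposite strand, and Igf2r and Airn, its imprinted neighbours, had log2 fold changes of 0.03 and -0.14.

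The genes whose levels ran most alike each member were sought among the 12410 genes that averaged 100 normalized counts or more, by Pearson's r of log2 normalized counts over the 6 libraries, as a description without a test. Igf2 was most like Opa1, Setdb1 and Srrm1 (r = 0.99, 0.99 and 0.98), with cKO c as the high point of all 3. Opa1, a mitochondrial fusion gene, was at 5948 there and between 5746 and 5813 elsewhere. Without cKO c the r values of these 3 genes were 0.91, 0.96 and 0.89. Igf2r was like H19 and Lin7a (r = 0.99 and 0.98), again with cKO c as the high point, and without it with r = 0.90 and 0.81. Igf1 was most like Vapa, Fads6 and Cadps (r = 0.99, 0.99 and 0.98), which were all highest in cKO a and lowest in cKO b. Igf1r was most like Ppp1r12a, Loxl3 and Disp1, each with r = 0.99. Igfbp2 was most like Mir99ahg, Bnip3l and Myt1, each with r = 0.99, with cKO a and control b as their lowest libraries. Igfbp3 was most like Fam155a, Pcdhgb5 and Mxd1 (r = 0.99, 0.99 and 0.98), and Igfbp4 like Gorasp1, Ralgps1 and Xylt1 (r = 0.99, 0.98 and 0.98). Igfbp5 was most like Mospd2, Qser1 and Gja1 (r = 0.99, 0.98 and 0.98), with Gja1, the gap junction gene, at 748 in cKO c and between 504 and 615 elsewhere; without cKO c the r values were 0.95, 0.92 and 0.91. Igfbp7 was most like Mrpl28, Map2k2 and Trerf1 (r = 0.99, 0.99 and 0.98).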

How the data were processed

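Trizol RNA of the 6 midbrain pools was sequenced paired-end by a service company. The submitters' processing notes name TopHat 1.0.14, Bowtie2 2.1.0, HTSeq 0.6.1p1, DESeq 1.10.1 and GRCm38.p4, while the study's methods name DESeq2. The authors deposited 1 table for both genotypes with group means of counts divided by size factors (a normalized signal per gene). Its other columns hold the authors' own comparison (ratio, log2 ratio, p-value and adjusted p-value) and were not used. Of 26852 genes and 3 lines naming no gene (31.8% of the mean counts), the 6 library counts of 26348 genes (98.1%) were recovered as the whole numbers, up to 30000 reads per group sum, that give the deposited means of 3 libraries. Size factors recomputed as medians of ratios differed by at most 0.140%. Of 1000 decoy means, 3 had an answer. The letters a, b and c cannot be tied to sample numbers.

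Recovered counts with a mean of at least 10 normalized counts (16673 genes) were fitted with limma 3.58.1 (voom, R 4.3.3), Lmx1b cKO against control, without covariates, with p-values adjusted over all genes by Benjamini-Hochberg. The script was tested on simulated data. Positions (26693 genes) came from GENCODE M21 on GRCm38. The 9 genes and all lists were chosen with earlier results of these data known. Named were the 9 genes, pathway genes with an unadjusted p under 0.05, the most abundant gene of each list and the 3 genes most like each member (log2 of normalized counts plus 1), a few of which are not reported here, with H19, Airn, Mest, Plagl1, Ibsp, Sp7, Runx2, Aqp1, Ttr, Ddc, Pitx3, En1, En2 and the unrecovered genes added after their values were seen. Skeletal muscle markers (Acta1) summed to 118 to 225 per library and the 7 recovered of 10 radial glia markers (Nes) to 20146 to 23132.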

Additional observations from a re-analysis of the deposited data

How the results depend on the processing

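Of 108 alternative values of the 9 log2 fold changes, 98 kept their direction and their side of the adjusted threshold and 10 turned in direction, for Igf1, Igfbp2, Igfbp3 and Igfbp5. Igfbp2 turned to 0.0037 with limma-trend in place of voom weights and to 0.0050 as the ratio of the deposited means. Leaving out 1 library gave -0.14 to 0.13 for Igf1, -0.10 to 0.11 for Igfbp2, -0.0455 to 0.283 for Igfbp3 and -0.0303 to 0.0345 for Igfbp5, all with a turn of sign. For the other 5 genes the sign held, with 0.22 to 0.70 for Igf2, 0.01 to 0.14 for Igf1r, 0.01 to 0.05 for Igf2r, 0.11 to 0.30 for Igfbp4 and -0.10 to -0.02 for Igfbp7. The 466 genes with an unadjusted p under 0.05 became 303 at a minimum mean of 100, where fewer genes were tested, 696 at a minimum mean of 1, where more were tested, and 338 (without control c) to 638 (without control a) with 1 library left out. Genes with an adjusted p under 0.05 numbered 0 in all but 1 fit, that without control a, with 3 Y-linked genes (Kdm5d, Uty and Ddx3y), the cause of which was not tested, so the range was 0 to 3. At a minimum mean of 1 the unadjusted p of Igfbp4 was 0.0497. The overlap of the groups, the spreads, ratios, levels per length and likeness without cKO c and the ratios per coding length were alternatives chosen after seeing the data. No paired analysis was possible because the recovered libraries carry no sample number. With 3 libraries a genotype, the interval of Igf2 spans 1.06-fold to 1.93-fold, and Igfbp3, with 194 to 278 reads per library, had the lowest depth of the 9 genes.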
